A study of Mus musculus with 16 samples.

Results

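The genes described here are 9 transcripts of the integrated stress response and of the unfolded protein response that overlaps with it: Atf4, Atf5, Ddit3, Trib3, Chac1, Asns, Sesn2, Herpud1 and Xbp1. They were taken from the deposited count table by gene name, 9 of 46320 genes, and all 9 passed the filter on low counts in every comparison. RNA-seq was performed on mouse motoneurons grown in microfluidic chambers, in which axons extend into a compartment separated from cell bodies and dendrites. RNA from the somatodendritic and the axonal compartment of Hnrnpr-/- and +/+ motoneurons was analysed in 4 libraries each, 16 in total. Motoneurons came from lumbar spinal cords of embryonic day 13 mice and were enriched by panning with an antibody against p75NTR. The Hnrnpr-/- mice carry a CRISPR/Cas9 deletion of the first exons of Hnrnpr, the gene for the RNA-binding protein hnRNP R, in all cells and on a C57Bl/6 background. Both compartments of both genotypes received 5 ng/ml CNTF, and the axonal compartment also received 20 ng/ml BDNF. Axonal cDNA was amplified with more PCR cycles than somatodendritic cDNA, so that compartment, neurotrophic factor and amplification cannot be told apart.

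In the integrated stress response, kinases that sense unfolded protein, amino acid shortage, heme shortage or double-stranded RNA phosphorylate the translation initiation factor eIF2. Protein synthesis then falls in general, while some mRNAs with upstream open reading frames, Atf4 among them, are translated more. The transcription factor ATF4 activates genes for amino acid supply, redox balance and, when stress lasts, cell death, and the ER sensors IRE1 and ATF6 act in parallel through XBP1 and chaperone genes. Gene counts record the amount of mRNA. They do not record how much ATF4 protein is made, nor do they separate spliced from unspliced Xbp1 mRNA.

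Motifs of these pathways were searched in the RefSeq promoter windows of the members, 250 bases before to 50 after the annotated start in GRCm38.p6. All 9 members were matched, with 10 promoters. The C/EBP-ATF response element was searched as TGATGNAA on both strands, and it was found in 4 of the 9 members, against 3.97% of all 32851 promoters of the same length. The stretches that hold these matches are shown because they separate members with the ATF4 type of element in this window from those without a match in it. Capitals mark the C/EBP-ATF match and, in Herpud1, also a match to the ER stress element II, which was searched as ATTGG and CCACG with 1 base between them and was present in 0.0365% of all promoters. The Asns stretch is chr6:7693210-7693459 on the minus strand, the Chac1 stretch is chr2:119350992-119351241 on the plus strand and the Herpud1 stretch is chr8:94386179-94386428 on the plus strand. Each of these holds the 250 bases before the start, 5′ to 3′ in the direction of the gene. For Trib3, 30 bases around the match after the start are shown, chr2:152344028-152344057 on the minus strand.
Asns: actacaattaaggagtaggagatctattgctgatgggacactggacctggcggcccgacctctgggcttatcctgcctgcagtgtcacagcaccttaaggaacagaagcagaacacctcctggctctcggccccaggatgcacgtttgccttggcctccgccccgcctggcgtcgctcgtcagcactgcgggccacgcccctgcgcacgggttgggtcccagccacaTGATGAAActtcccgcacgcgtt
Chac1: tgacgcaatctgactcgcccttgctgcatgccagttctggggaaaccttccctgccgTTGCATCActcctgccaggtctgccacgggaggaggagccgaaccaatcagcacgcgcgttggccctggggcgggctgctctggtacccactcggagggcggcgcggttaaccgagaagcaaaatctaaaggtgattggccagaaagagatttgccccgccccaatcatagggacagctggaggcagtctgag
Herpud1: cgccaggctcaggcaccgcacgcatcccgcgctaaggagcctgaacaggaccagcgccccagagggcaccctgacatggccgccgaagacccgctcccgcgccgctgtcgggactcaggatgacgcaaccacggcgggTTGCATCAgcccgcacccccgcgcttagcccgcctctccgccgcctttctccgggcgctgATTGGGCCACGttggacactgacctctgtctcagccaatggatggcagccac
Trib3: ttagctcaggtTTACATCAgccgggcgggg

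The match began 23 bases before the start in Asns, in the direction of the gene, and 193 bases before it in Chac1, 112 before it in Herpud1 and at base 15 after it in Trib3, all 3 on the opposite strand. The ER stress element II match in Herpud1 began 52 bases before the start. The core of the cAMP response element, TGACGT, was present in 7.51% of all promoters and the ER stress element, CCAAT and CCACG with 9 bases between them, in 0.119%. Neither was found in a member. A match is a description of these letters and says nothing about binding in motoneurons.

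**Figure D1:**
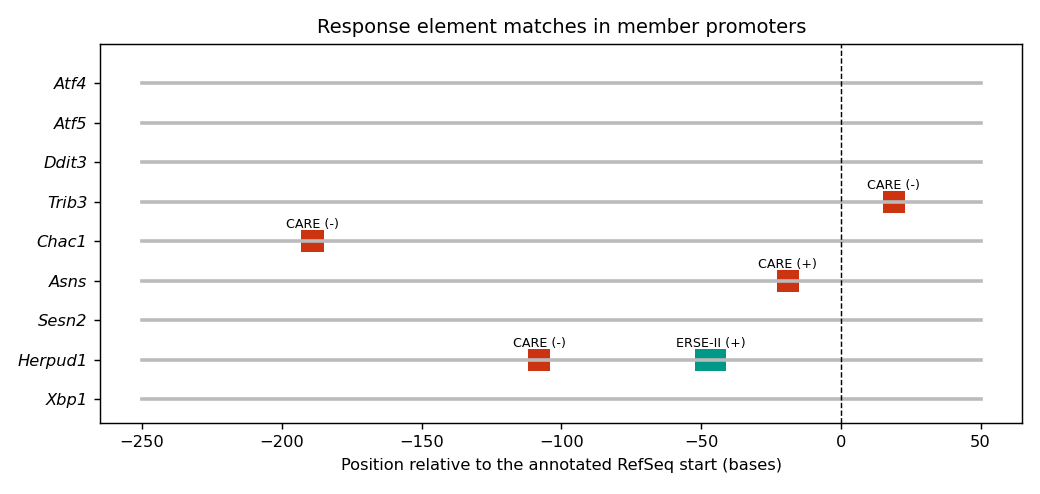
Positions of response element matches in the promoter windows of the 9 members, in bases from the annotated RefSeq start, with the strand of each match in brackets. Grey lines are the searched windows, red boxes the C/EBP-ATF matches (CARE) of Trib3, Chac1, Asns and Herpud1, and the green box the ER stress element II (ERSE-II) match of Herpud1.

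Total counts per library ranged from 22024923 to 34864151. Hnrnpr itself had 13 to 38 counts in the 8 Hnrnpr-/- libraries and 3922 to 15608 in the 8 +/+ libraries. Levels are given as counts per 1000000 counts (CPM), scaled by TMM over all 16 libraries. The summed level of 12 motoneuron and neuronal markers, led by Tubb3, ranged over 2754 to 4756 CPM in the somatodendritic and over 211.7 to 2120 CPM in the axonal compartment, and 2 of its defining genes, Mnx1 and Isl2, stayed under 1 CPM in every library, Mnx1 at 0.0600 CPM or less. The 10 astrocyte and radial glia markers, led by Fabp7, summed to 1193 to 2371 CPM in the somatodendritic and 3477 to 6338 CPM in the axonal compartment, and none of them stayed under 1 CPM throughout. The 9 fibroblast and meningeal markers, led by Col3a1, ranged from 184.5 to 2168 CPM in axonal libraries and were highest in replicates numbered 4 of +/+ (2168 CPM) and Hnrnpr-/- (1976 CPM). In somatodendritic libraries their sum was 90.1 to 1313 CPM. The 10 oligodendroglia and Schwann markers, led by Olig1, summed to 227.8 to 1082 CPM in the somatodendritic and 332.3 to 1869 CPM in the axonal compartment, the 8 microglia markers, led by C1qb, to 11.1 to 128.1 and 15.3 to 422.9 CPM, and 7 nuclear RNAs, led by Malat1, to 1210 to 1892 and 646.8 to 2745 CPM. Replicate spread was far wider in axons, with a common dispersion of 0.275 against 0.0499 in the somatodendritic compartment. In whole-compartment RNA, fewer cells of a type and less RNA per cell cannot be told apart.

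Levels of different genes were compared per kilobase of exon. In both genotypes the somatodendritic order was Asns, Atf4, Xbp1, Herpud1, Sesn2, Chac1, Ddit3, Trib3 and Atf5. In +/+ somatodendritic libraries Asns, which encodes asparagine synthetase, stood at 95.9 ± 7.60 CPM per kilobase (SD, n = 4) and Atf5 at 0.641 ± 0.160. In these +/+ libraries the levels of Asns and Atf4 overlapped, as did neighbours from Xbp1 down to Chac1, while Atf4 lay above Xbp1, and Chac1, Ddit3, Trib3 and Atf5 were separated from each other. In axons Atf4 came first, at 105.6 ± 20.4 CPM per kilobase in +/+ and 115.7 ± 29.9 in Hnrnpr-/- libraries, and in +/+ axons its 4 values lay above those of Asns (61.9 ± 15.1). In Hnrnpr-/- axons Atf4 and Asns (86.8 ± 25.3) overlapped. Sesn2 and Herpud1 were in the other order in axons, and so were Ddit3 and Chac1 in +/+ axons, but both pairs overlapped. Trib3 and Atf5 were last in all 4 groups.

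**Figure D2:**
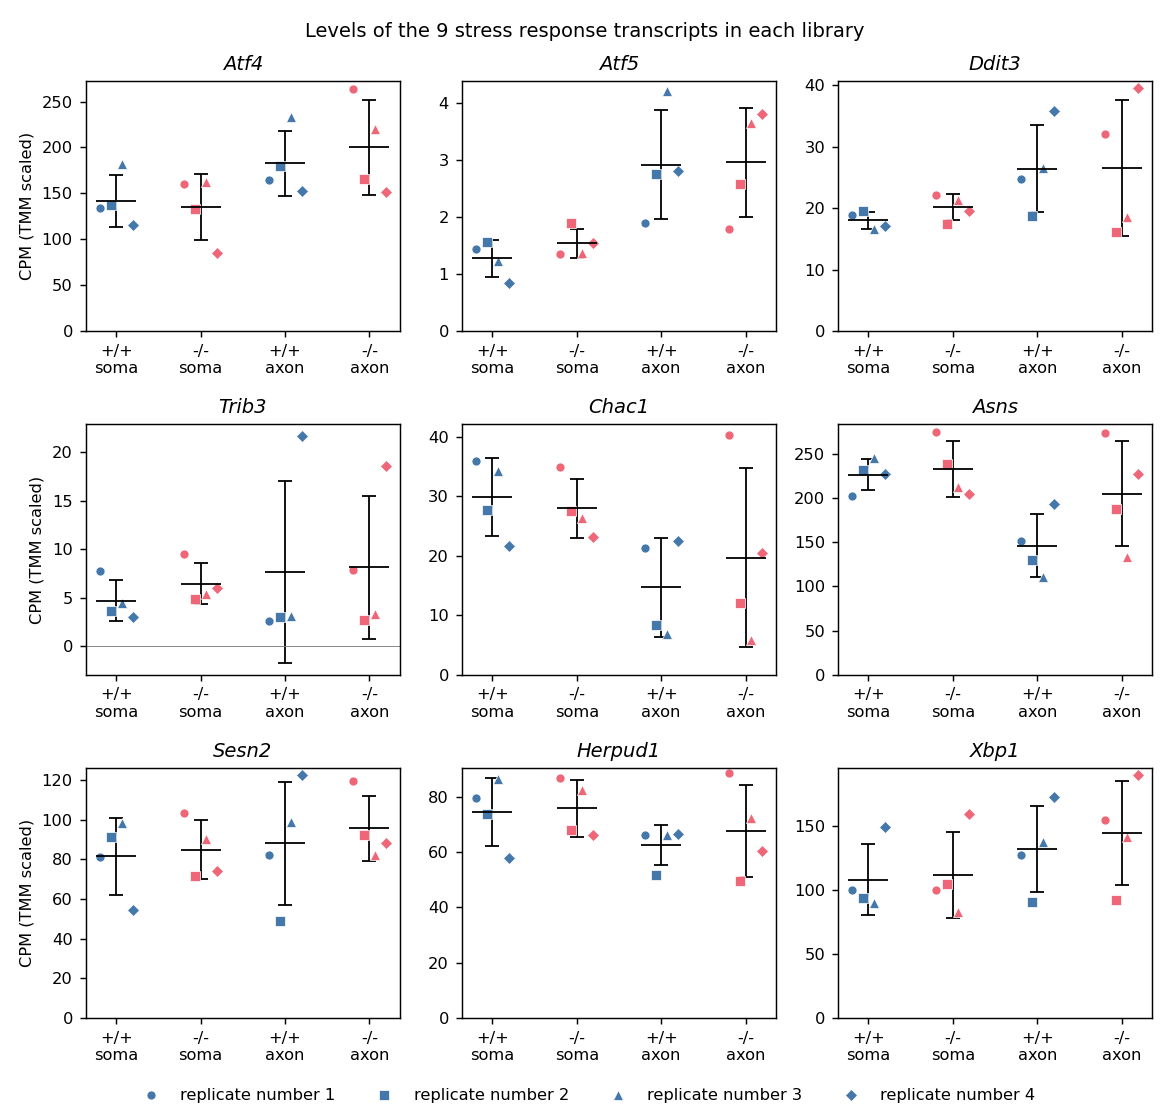
CPM of the 9 members in each of the 16 libraries, by group, with the replicate number as the symbol, +/+ in blue and Hnrnpr-/- in red. Black lines are means and bars are SD (n = 4). Atf5 in +/+ axons (1.91 to 4.22 CPM) and Asns in +/+ axons (110.3 to 193.5 CPM) do not overlap with the somatodendritic libraries of +/+, and Trib3 has 1 high library in each axonal group.

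To compare the compartments, axonal libraries were set against somatodendritic libraries within each genotype. In +/+ motoneurons Atf5 was higher in axons and Asns was lower, and 7 of the 9 members did not pass the threshold. In Hnrnpr-/- motoneurons Atf5 was again higher, and 8 members did not pass. These 2 calls in +/+ and 1 call in Hnrnpr-/- motoneurons compare with 57.5% and 54.2% of all 19964 genes tested that differed between compartments in edgeR's quasi-likelihood test. By direction, 30.1% of all genes were higher and 27.4% lower in +/+ axons, and 27.5% were higher and 26.8% lower in Hnrnpr-/- axons. The median log2 fold change was 0.29 over the members and 0.07 over all genes in +/+, and 0.33 and -0.003 in Hnrnpr-/- motoneurons. These calls are from fits without a replicate block. With the replicate number as a block within genotype, Atf4 passed in Hnrnpr-/- motoneurons (edgeR adjusted p = 0.006935) and Atf5 did not (0.05429).

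Atf5 encodes a bZIP transcription factor whose mRNA, like that of Atf4, carries upstream open reading frames (positions here and below are in GRCm39, chr7:44461680-44466082, minus strand). In +/+ somatodendritic libraries Atf5 was at 1.45, 1.57, 1.24 and 0.844 CPM in replicates 1 to 4, and in +/+ axons at 1.91, 2.76, 4.22 and 2.81 CPM. All +/+ axonal libraries were above all +/+ somatodendritic ones. The log2 fold change was 1.19 (SE 0.32, edgeR adjusted p = 0.005841), a 2.28-fold rise with a 95% interval of 1.42 to 3.67. In Hnrnpr-/- motoneurons Atf5 was at 1.36, 1.90, 1.38 and 1.54 CPM in the somatodendritic and 1.80, 2.58, 3.66 and 3.81 CPM in the axonal compartment. Axonal replicate 1 lay below the highest somatodendritic library here, and the others lay above it. The log2 fold change was 0.94 (SE 0.32, edgeR adjusted p = 0.0225), and with the replicate number as a block within genotype it was 0.89 (edgeR adjusted p = 0.05429). The rise in Hnrnpr-/- motoneurons also missed the threshold without somatodendritic replicate 3 (edgeR adjusted p = 0.05865), axonal replicate 3 (0.05352) or axonal replicate 4 (0.06972), and with both axonal libraries numbered 4 left out (0.07605).

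Atf5 was the least abundant member, with 18 to 130 counts per library. Its span shares 571 bases with Nup62, a nuclear pore gene, and 289 bases with Il4i1b, both on the opposite strand. The cDNA kit does not mark the strand, so that reads from the shared bases cannot be assigned. Nup62 averaged 74.9 CPM in the somatodendritic and 111.5 CPM in the axonal libraries of +/+ (log2 fold change 0.57, SE 0.27, edgeR adjusted p = 0.08116) and 74.5 and 130.2 CPM in Hnrnpr-/- libraries (0.81, SE 0.27, edgeR adjusted p = 0.02039). Its part in the Atf5 values was not tested.

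Atf4, the central transcription factor of the response (chr15:80139385-80141746, plus strand), was at 134.6, 137.0, 181.7 and 115.2 CPM in the somatodendritic and 165.0, 179.6, 232.9 and 152.9 CPM in the axonal libraries of +/+. The groups overlapped, and the log2 fold change was 0.36 (SE 0.23, edgeR adjusted p = 0.1975). In Hnrnpr-/- motoneurons it was at 160.8, 133.2, 162.5 and 85.2 CPM in the somatodendritic and 263.4, 165.2, 220.2 and 151.4 CPM in the axonal compartment. The lowest axonal value lay below 2 of the somatodendritic ones. In Hnrnpr-/- motoneurons the log2 fold change was 0.56 (SE 0.23, edgeR adjusted p = 0.05364). The replicate numbers of these libraries were taken as pairs from their correlations, which the labels do not state. Within each number Atf4 was higher in axons, by 0.71, 0.31, 0.44 and 0.83 on the log2 scale. In +/+ libraries, whose numbers were not taken as pairs, these differences were 0.29, 0.39, 0.36 and 0.41, so Atf4 was higher in axons within every number of both genotypes. The +/+ change passed in 1 of 30 alternatives, the fit with the number as a block within genotype (0.36, SE 0.14, edgeR adjusted p = 0.0476). With the replicate number as a block within genotype the change in Hnrnpr-/- motoneurons was 0.57 (SE 0.14, edgeR adjusted p = 0.006935). It passed in 14 of 30 alternatives, both block fits among them and 8 fits without 1 library, which were those without somatodendritic replicates 3 or 4 or axonal replicates 3 or 4 of +/+ and without somatodendritic replicates 1 or 3 or axonal replicates 2 or 4 of Hnrnpr-/- (edgeR adjusted p = 0.0344 to 0.04951).

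Ddit3, which encodes the transcription factor CHOP that is linked to cell death under lasting stress (chr10:127126662-127132160, plus strand), was even in the somatodendritic compartment and scattered in axons. It was at 18.9, 19.5, 16.6 and 17.2 CPM in +/+ somatodendritic libraries and at 24.7, 18.8, 26.5 and 35.8 CPM in +/+ axons. Axonal replicate 4 was the highest and replicate 2 lay within the somatodendritic range. Its log2 fold change was 0.55 (SE 0.26, edgeR adjusted p = 0.07988), and it passed in 5 of 30 alternatives. These were library totals without TMM (0.70, edgeR adjusted p = 0.03063), protein-coding genes only (0.04427), limma voom (0.03966), only the 8 +/+ libraries (0.04506) and the fit without +/+ axonal replicate 2 (0.68, edgeR adjusted p = 0.03714). In Hnrnpr-/- libraries Ddit3 was at 22.2, 17.5, 21.4 and 19.6 CPM in the somatodendritic and 32.1, 16.2, 18.7 and 39.5 CPM in the axonal compartment. The difference there was 0.40 (SE 0.26, edgeR adjusted p = 0.2026), and it ranged from 0.14 without Hnrnpr-/- axonal replicate 4 to 0.58 without replicate 3, with no call. The span of Ddit3 shares 77 bases with Mbd6 and 71 bases with Mars1 on the opposite strand. Mbd6 averaged 2.12 CPM in the somatodendritic and 3.71 CPM in the axonal libraries of +/+ (log2 fold change 0.80, edgeR adjusted p = 0.03349), Mars1 186.1 and 173.6 CPM (-0.10, edgeR adjusted p = 0.692), and the part of shared reads in the Ddit3 values was not tested.

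Trib3 encodes a pseudokinase that ATF4 and CHOP induce and that in turn restrains them (chr2:152179345-152185980, minus strand). It was at 7.78, 3.60, 4.43 and 3.05 CPM in the somatodendritic and 2.62, 3.08, 3.18 and 21.7 CPM in the axonal libraries of +/+. In Hnrnpr-/- libraries it was at 9.54, 4.85, 5.44 and 6.05 CPM in the somatodendritic and 7.90, 2.73, 3.30 and 18.6 CPM in the axonal compartment. In both genotypes axonal replicate 4 was the highest library of that genotype, and the remaining axonal libraries were within or below the somatodendritic range. Its log2 fold change was 0.69 (SE 0.71, edgeR adjusted p = 0.4149) in +/+ and 0.33 (SE 0.70, edgeR adjusted p = 0.7105) in Hnrnpr-/- motoneurons. Without axonal replicate 4 of the same genotype it was -0.63 in +/+ (edgeR adjusted p = 0.3589) and -0.48 in Hnrnpr-/- motoneurons (0.5889). These 2 libraries also had the highest fibroblast and meningeal marker sums of all 16. Other libraries did not follow this order. Hnrnpr-/- somatodendritic replicates 3 and 4, at 1225 and 1313 CPM of these markers, had Trib3 at 5.44 and 6.05 CPM. The +/+ axonal replicate 1, at 866.6 CPM, had the lowest axonal Trib3. The part of these cells in the Trib3 values was not tested.

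Among the enzymes and effectors downstream of ATF4, Asns (chr6:7675165-7693209, minus strand) was at 202.4, 232.0, 245.4 and 227.8 CPM in the somatodendritic and 151.4, 130.3, 110.3 and 193.5 CPM in the axonal libraries of +/+. No axonal library of +/+ reached the lowest somatodendritic one. Asns changed by -0.63 on the log2 scale (SE 0.21, edgeR adjusted p = 0.01929), that is, 0.645-fold with a 95% interval of 0.472 to 0.882. The call was lost without +/+ axonal replicate 3 (-0.47, edgeR adjusted p = 0.08743), without +/+ somatodendritic replicates 2, 3 or 4 (0.05738, 0.06314 and 0.05067) and with library totals in place of TMM (-0.48, edgeR adjusted p = 0.05948). In Hnrnpr-/- motoneurons Asns was at 275.7, 239.1, 213.0 and 205.1 CPM in the somatodendritic and 273.9, 187.6, 132.9 and 227.1 CPM in the axonal compartment. These groups overlapped, with a log2 fold change of -0.18 (SE 0.21, edgeR adjusted p = 0.4811).

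Chac1 encodes an enzyme that degrades glutathione (chr2:119181723-119184807, plus strand), and its axonal libraries varied most after those of Trib3. In +/+ libraries it was at 35.9, 27.7, 34.3 and 21.6 CPM in the somatodendritic and 21.3, 8.27, 6.75 and 22.4 CPM in the axonal compartment. Axonal replicates 2 and 3 were far below the somatodendritic range, and replicate 4 lay within it. The log2 fold change was -1.03 (SE 0.49, edgeR adjusted p = 0.0853), and it passed in 3 of 30 alternatives. Among them were limma voom (-0.84, limma adjusted p = 0.04063) and the replicate number as a block across genotypes (-1.21, edgeR adjusted p = 0.02476). In Hnrnpr-/- libraries Chac1 was at 34.9, 27.6, 26.4 and 23.1 CPM in the somatodendritic and 40.3, 12.01, 5.76 and 20.4 CPM in the axonal compartment. Axonal replicate 1 was here the highest of all libraries, and the log2 fold change was -0.51 (SE 0.49, edgeR adjusted p = 0.3911). Without that library it was -1.14 (edgeR adjusted p = 0.0431), and without Hnrnpr-/- axonal replicate 3, the lowest, it was -0.17 (edgeR adjusted p = 0.7757). Leaving out Hnrnpr-/- axonal replicate 1 also brought the +/+ change, which shares its estimate of the spread, past the threshold (-1.03, edgeR adjusted p = 0.04278). Sesn2, a stress-induced inhibitor of mTORC1 signalling (chr4:132220115-132237767, minus strand), ranged from 54.6 to 103.2 CPM in the somatodendritic and from 48.8 to 122.5 CPM in the axonal compartment. Its log2 fold change was 0.11 (SE 0.25, edgeR adjusted p = 0.7198) in +/+ and 0.17 (SE 0.25, edgeR adjusted p = 0.5843) in Hnrnpr-/- motoneurons.

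Among the ER members, Herpud1, which encodes a membrane protein of ER-associated degradation (chr8:95113057-95121999, plus strand), ranged from 57.8 to 86.8 CPM in the somatodendritic and from 49.7 to 88.6 CPM in the axonal compartment. The log2 fold change was -0.25 (SE 0.18, edgeR adjusted p = 0.2569) in +/+ and -0.16 (SE 0.18, edgeR adjusted p = 0.4764) in Hnrnpr-/- motoneurons. Xbp1, whose mRNA is spliced by IRE1 to encode the active transcription factor (chr11:5470641-5475993, plus strand), ranged from 82.3 to 159.6 CPM in the somatodendritic and from 90.9 to 189.9 CPM in the axonal compartment. Its log2 fold change was 0.29 (SE 0.26, edgeR adjusted p = 0.361) in +/+ and 0.37 (SE 0.26, edgeR adjusted p = 0.2471) in Hnrnpr-/- motoneurons. In each compartment of each genotype the replicate numbered 4 had the highest Xbp1 level.

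**Figure D3:**
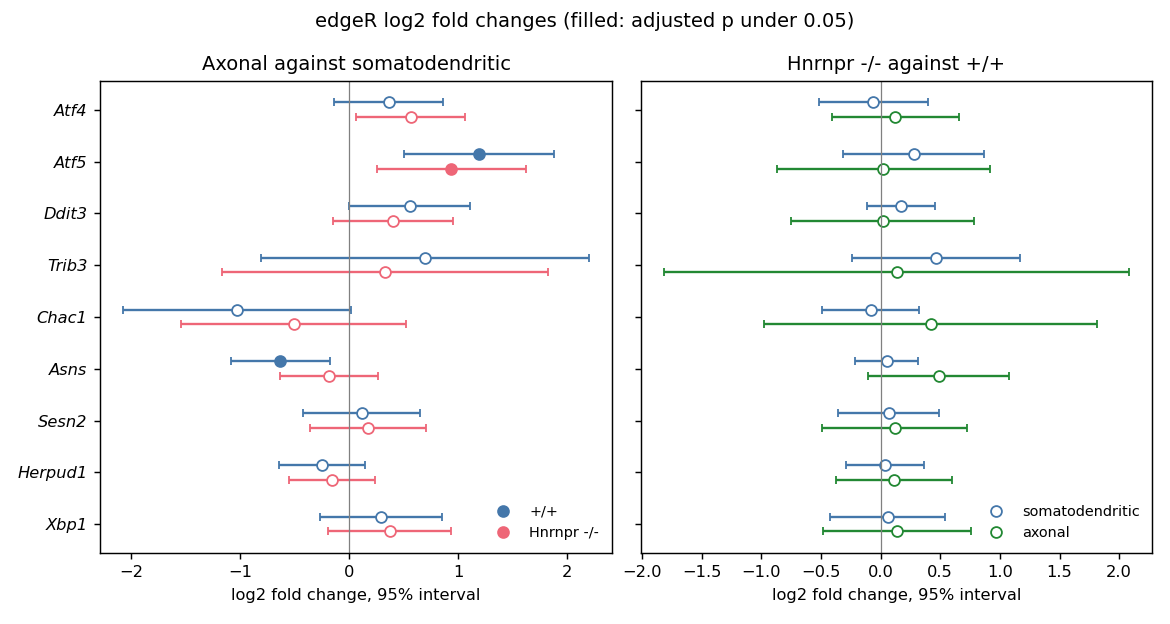
edgeR log2 fold changes of the 9 members with 95% intervals, axonal against somatodendritic on the left (+/+ blue, Hnrnpr-/- red) and Hnrnpr-/- against +/+ on the right (somatodendritic blue, axonal green). Filled points passed an adjusted p of 0.05 in fits without a replicate block. These were Atf5 in both genotypes and Asns in +/+ between compartments, and none between genotypes.

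The members were set beside the motoneuron marker content of the axonal libraries. In each genotype Chac1 and Asns were lowest in the axonal library numbered 3, at 6.75 and 110.3 CPM in +/+ and 5.76 and 132.9 CPM in Hnrnpr-/- axons. These libraries also had the lowest motoneuron marker sums, 285.6 CPM in +/+ and 211.7 CPM in Hnrnpr-/- axons. Both genes had their highest axonal level in Hnrnpr-/- axonal replicate 1, which had the highest axonal sum of 2120 CPM. Other libraries did not follow this order. The next highest sum, 1408 CPM in +/+ axonal replicate 2, went with Chac1 at 8.27 and Asns at 130.3 CPM, and a low sum of 406.8 CPM in Hnrnpr-/- axonal replicate 4 went with 20.4 and 227.1 CPM. Atf5 had its highest axonal level, 4.22 CPM, in +/+ replicate 3 and its lowest, 1.80 CPM, in Hnrnpr-/- replicate 1. With both axonal libraries numbered 3 left out, the log2 fold change of Asns between the compartments of +/+ motoneurons was -0.54 (edgeR adjusted p = 0.0191), and that of Atf5 was 0.94 in +/+ (0.02769) and 0.83 in Hnrnpr-/- motoneurons (0.05072). The part of the marker content in these values was not tested.

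**Figure D4:**
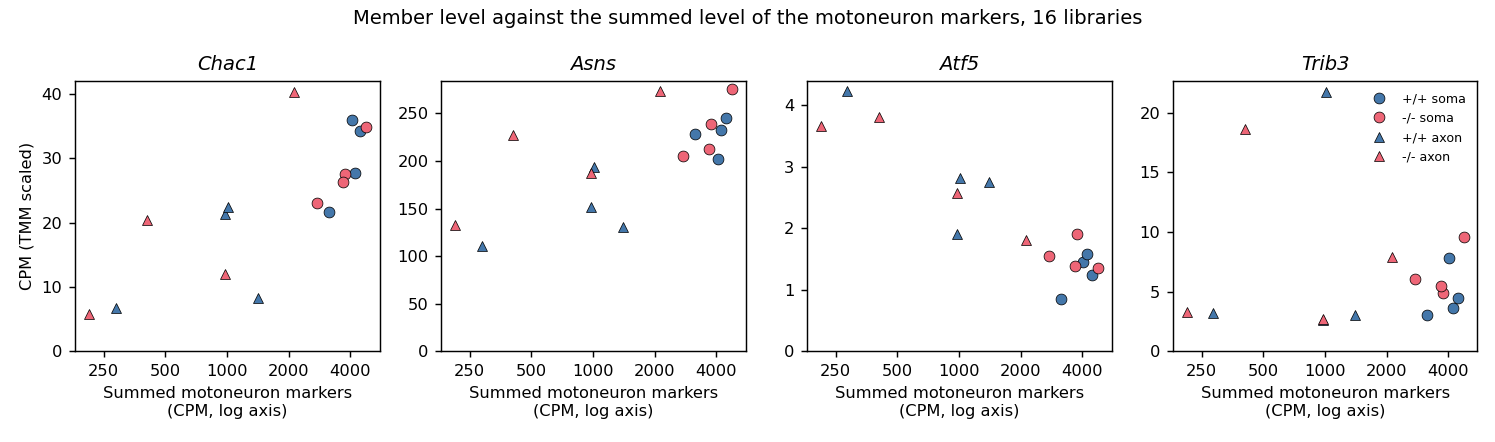
CPM of Chac1, Asns, Atf5 and Trib3 against the summed CPM of 12 motoneuron markers on a log axis, with circles for somatodendritic and triangles for axonal libraries, +/+ in blue and Hnrnpr-/- in red. The somatodendritic libraries lie at 2754 to 4756 CPM of markers and the axonal ones at 211.7 to 2120 CPM, where the 2 lowest have Chac1 at 5.76 and 6.75 CPM.

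To determine whether loss of hnRNP R was accompanied by a change in these transcripts, Hnrnpr-/- libraries were compared with +/+ libraries within each compartment. These contrasts use the same libraries as the compartment contrasts. None of the 9 members passed the threshold in the somatodendritic compartment, where 0.00557% of all 17961 genes tested did. There, 0 members had an unadjusted p under 0.05 in the main edgeR fit of all 8 libraries, and DESeq2 and limma voom called 0 as well. That of Trib3 was under 0.05 without +/+ replicate 1 (0.82, edgeR unadjusted p = 0.01747, adjusted p = 0.999). It was so too with the replicate number as a block (0.51, edgeR unadjusted p = 0.02959, adjusted p = 0.9829). The log2 fold changes ranged from -0.08 for Chac1 (95% interval -0.49 to 0.32) to 0.46 for Trib3 (-0.24 to 1.17), with a median of 0.06 against 0.01 over all genes. The narrowest interval was that of Asns, at 226.9 ± 18.0 CPM in +/+ and 233.2 ± 31.8 CPM in Hnrnpr-/- libraries (SD, n = 4), with a log2 fold change of 0.05 and a 95% interval of -0.22 to 0.32. For Ddit3 the interval was -0.11 to 0.46 around 0.17, and for Atf4 it was -0.52 to 0.40 around -0.06.

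In axons again 0 of the 9 members passed the threshold, against 0.00528% of 18957 genes, and DESeq2 and limma voom called 0. In the main edgeR fit of these 8 libraries, 0 members had an unadjusted p under 0.05. All 9 log2 fold changes were above 0, with a median of 0.12 against 0.02 over all genes, of which 52.8% were above 0, but 4 of the 9 were below 0 in limma voom with sample weights (Ddit3, Chac1, Herpud1 and Xbp1). The largest was that of Asns, at 146.4 ± 35.6 CPM in +/+ and 205.4 ± 59.8 CPM in Hnrnpr-/- axons (SD, n = 4). Its log2 fold change of 0.49 had a 95% interval of -0.10 to 1.08 (edgeR unadjusted p = 0.0939, adjusted p = 1). The 4 values of each genotype overlapped, with Hnrnpr-/- replicate 3 below 2 of the +/+ libraries. Within each replicate number Asns was higher in Hnrnpr-/- axons, although numbers were not taken as pairs between genotypes. With the number as a block the log2 fold change was 0.47 (edgeR unadjusted p = 0.02387), and Asns was not called. The unadjusted p of Asns was under 0.05 with all 16 libraries in 1 model (edgeR unadjusted p = 0.03568, adjusted p = 1) and without Hnrnpr-/- axonal replicate 3 (edgeR unadjusted p = 0.02812, adjusted p = 0.9999). Chac1 differed by 0.42 (95% interval -0.97 to 1.81) and Trib3 by 0.13 (-1.82 to 2.08), intervals that run from 0.510 to 3.51-fold and from 0.284 to 4.24-fold. Atf4 differed by 0.12 (-0.41 to 0.66), Xbp1 by 0.14 (-0.48 to 0.76) and Atf5 by 0.02 (-0.87 to 0.91). Without +/+ axonal replicate 4 the Trib3 value was 1.46, and without Hnrnpr-/- axonal replicate 4 it was -0.73.

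The difference between compartments in the genotype effect was tested in 1 model of all 16 libraries. Of the 9 members, 0 passed in edgeR, as did 0% of 19964 genes, 0 had an unadjusted p under 0.05 (Asns had one without Hnrnpr-/- axonal replicate 3, edgeR unadjusted p = 0.03911, adjusted p = 0.9999), and DESeq2 and limma voom called 0 members. The largest difference was that of Chac1, at 0.52 (SE 0.69, 95% interval -0.95 to 1.98). That of Asns was 0.45 (SE 0.30, 95% interval -0.19 to 1.09). Asns was called between compartments in +/+ and not in Hnrnpr-/- motoneurons, but this test of the difference itself did not pass (edgeR unadjusted p = 0.1539, adjusted p = 1). By replicate number 1 to 4, the log2 ratio of axonal to somatodendritic Asns was -0.418, -0.833, -1.153 and -0.235 in +/+ motoneurons. In Hnrnpr-/- motoneurons it was -0.009, -0.35, -0.681 and 0.147, higher within every number. The numbers were not taken as pairs between genotypes. Trib3 had the widest interval, -2.48 to 1.75.

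The other genes of these pathways were examined in 4 lists. Of all genes tested, 30.1% were higher and 27.4% lower in +/+ axons (median 0.07), and 27.5% were higher and 26.8% lower in Hnrnpr-/- axons (median -0.003). Of 20 eIF2 kinases, phosphatases and regulators, 7 were higher and 7 lower in +/+ axons, with a median log2 fold change of -0.02, and 7 were higher and 6 lower in Hnrnpr-/- axons (median 0.12), shares near those of all genes. Eif2b2, a subunit of the nucleotide exchange factor of eIF2, was at 42.6 ± 1.80 CPM in the somatodendritic and 103 ± 20.2 CPM in the axonal libraries of +/+ (log2 fold change 1.27, SE 0.17, edgeR adjusted p = 5.801e-05). Ppp1r15a, the stress-induced subunit that directs a phosphatase to eIF2, rose by 1.20 and Dnajc3, an inhibitor of the eIF2 kinase PERK, by 1.19 on the log2 scale. Among those lower in +/+ axons were Gcn1 (-1.57), whose protein activates the amino acid sensing kinase GCN2, Impact (-0.99), whose protein competes with GCN2 for GCN1, and Eif2ak3 (-1.01), which encodes PERK. In Hnrnpr-/- axons Eif2b2 (1.39), Ppp1r15a (1.11) and Oma1 (1.04), a mitochondrial protease that relays stress to eIF2 kinases, were higher and Gcn1 (-1.03), Eif2ak3 (-0.86) and Eif2ak4 (-0.83), the gene of GCN2, were lower.

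Of the 30 further ATF4 targets and partners, 29 were tested, and 14 were higher and 6 lower in +/+ axons (median 0.49), against 12 and 6 in Hnrnpr-/- axons (median 0.40), beside medians of 0.07 and -0.003 and shares of 30.1% and 27.5% higher and 27.4% and 26.8% lower over all genes. Eif4ebp1, the gene of the translation repressor 4E-BP1, was at 4.38 ± 1.68 CPM in the somatodendritic and 87.4 ± 48.1 CPM in the axonal libraries of +/+ (log2 fold change 4.31, SE 0.52, edgeR adjusted p = 3.282e-05). It was at 4.32 ± 1.20 and 92.9 ± 55.2 CPM in Hnrnpr-/- libraries (4.43, SE 0.52, edgeR adjusted p = 3.913e-05). No axonal library was below 44.3 CPM, and no somatodendritic library was above 6.12 CPM. Nupr1, a stress-induced chromatin protein, rose by 4.51 in +/+ (SE 1.28, edgeR adjusted p = 0.007762) and 4.27 in Hnrnpr-/- axons (SE 1.27), but ranged from 0.973 to 70.2 CPM among axonal libraries and was highest in those numbered 3. Cebpb, a bZIP partner of ATF4, rose by 2.11 and 2.07. In the opposite direction Ddit4, an inhibitor of mTORC1, was at 37.8 ± 14.4 CPM in the somatodendritic and 4.16 ± 1.54 CPM in the axonal libraries of +/+ (log2 fold change -3.18, SE 0.37, edgeR adjusted p = 2.814e-05), and changed by -3.14 in Hnrnpr-/- motoneurons. Vldlr, a lipoprotein receptor gene, changed by -1.41 and -1.65, and Slc7a3, a cationic amino acid transporter gene, by -1.37 and -1.44.

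Of 32 ER unfolded protein response genes, 14 were higher and 6 lower in +/+ axons (median 0.48), and 15 were higher and 5 lower in Hnrnpr-/- axons (median 0.52), where 30.1% and 27.5% of all genes were higher and 27.4% and 26.8% lower. Sdf2l1, a component of ER chaperone complexes, was at 7.29 ± 1.59 CPM in the somatodendritic and 36.6 ± 14.5 CPM in the axonal libraries of +/+ (log2 fold change 2.33, SE 0.42, edgeR adjusted p = 0.0004344), and rose by 2.16 in Hnrnpr-/- axons. Creb3l1 and Creb3l2, which encode ER-resident transcription factors, rose by 2.36 and 2.26 in +/+ axons, and Creb3l2 (2.05) and the secreted ER factor Manf (2.01) were among the largest rises in Hnrnpr-/- axons. Mbtps2, the protease that releases ATF6 in the Golgi, changed by -1.71 in +/+ and -1.46 in Hnrnpr-/- axons, the oxidase gene Ero1b by -1.30 and -1.16, and Sel1l, a subunit of the ER degradation ligase, by -0.97 and -0.86. Of 10 mitochondrial unfolded protein response genes, 2 were higher and 2 lower in +/+ axons (median 0.12) and 4 were higher in Hnrnpr-/- axons (median 0.22), counts of few genes beside the same shares of all genes. The chaperonin gene Hspe1 rose by 2.34 in +/+ and 1.91 in Hnrnpr-/- axons and the protease gene Clpp by 1.10 and 1.15. The protease and co-chaperone genes Afg3l2 (-0.68) and Dnaja3 (-0.44) were lower in +/+ axons, and Spg7, another mitochondrial protease gene, was higher by 0.47 in Hnrnpr-/- axons. The astrocyte and radial glia marker sum was higher in every axonal than in every somatodendritic library, and its part in these changes was not tested. Of its 10 genes, Fabp7, Vim and Nes were separated in this way, while the other 7 overlapped between compartments, and in Hnrnpr-/- libraries Slc1a2 was lower in axons (63.9 CPM at most) than in the somatodendritic compartment (68.9 CPM at least).

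**Figure D5:**
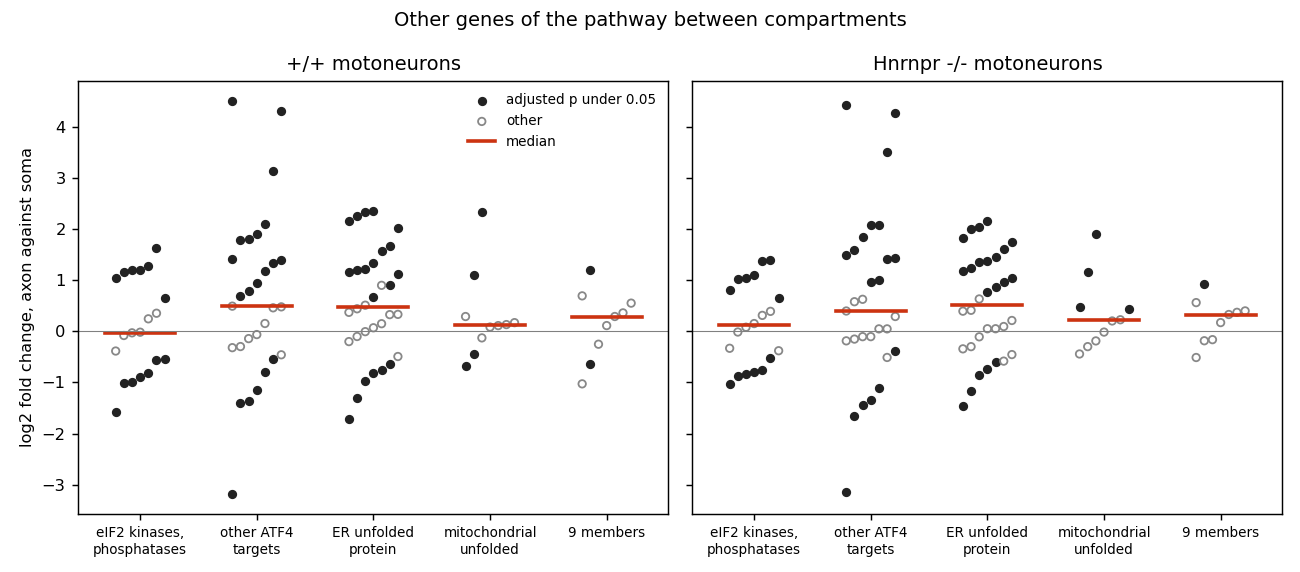
log2 fold changes between axons and somatodendritic compartment for the genes of the 4 lists and the 9 members, in +/+ motoneurons on the left and Hnrnpr-/- motoneurons on the right. Black points passed an adjusted p of 0.05, open points did not, and red bars are medians. Each of the 2 longest lists, ATF4 targets and ER genes, spreads to both sides of 0 with a median between 0.40 and 0.52.

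Between genotypes 0 genes of the 4 lists passed the threshold in edgeR in either compartment. An unadjusted p under 0.05 was found for 2 ATF4 targets in the somatodendritic compartment, where 2.62% of all genes had one. Stc2, a stress-induced glycoprotein hormone gene, was at 4.79, 1.98, 3.23 and 1.31 CPM in +/+ and 9.63, 3.42, 4.48 and 5.32 CPM in Hnrnpr-/- libraries (log2 fold change 1.02, SE 0.42, edgeR unadjusted p = 0.03458, adjusted p = 0.9992). The groups overlapped. Pycr1, a proline synthesis gene, was at 11.2 ± 0.624 and 14.6 ± 3.34 CPM (0.40, edgeR unadjusted p = 0.04757, adjusted p = 0.9992). In axons, where 0.723% of all genes had such a p, 1 gene of the lists did, the mitochondrial chaperone Trap1, at 97.4 ± 9.97 CPM in +/+ and 126.6 ± 8.25 CPM in Hnrnpr-/- libraries (0.38, edgeR unadjusted p = 0.03945, adjusted p = 1).

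Single libraries stood apart for several members at once. Hnrnpr-/- somatodendritic replicate 1 was the highest of the 8 somatodendritic libraries for 5 members, Ddit3, Trib3, Asns, Sesn2 and Herpud1, and +/+ somatodendritic replicate 4 the lowest for 5, Atf5, Trib3, Chac1, Sesn2 and Herpud1. Hnrnpr-/- axonal replicate 1 was the highest axonal library for 4 members. Over the 16 libraries the genes whose log2(CPM + 1) was most like that of Trib3, of 11226 compared, were Ero1a, an ER oxidase gene (Pearson r 0.938), Vegfa, the gene of a vascular growth factor (0.907), Abcc1 (0.843), Trpm4 (0.842) and Ltbp4 (0.808). Ero1a was at 97.4 CPM in +/+ axonal replicate 4, at 64.3 and 60.0 CPM in Hnrnpr-/- axonal replicates 4 and 1 and at 20.1 to 29.3 CPM in the remaining 5 axonal libraries. Vegfa was at 150.8, 98.9 and 72.3 CPM in the same 3 libraries and at 20.1 to 45.9 CPM in the remaining 5. Among the axonal libraries these 3 were also the highest for Trib3, and among the somatodendritic ones Hnrnpr-/- replicate 1 was the highest for all 3 genes (9.54 CPM for Trib3, 64.4 CPM for Ero1a and 102.4 CPM for Vegfa). The genes most like Atf4, of 11225, were Rps19bp1 (0.868), Gm8325 (0.863), Ankrd9 (0.858), Ube2v1 (0.855) and Ctu2 (0.851). These libraries share compartments and marker content, and no test was made of the likeness.

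Within a compartment, 72 relations between members were computed over 8 libraries each, and none passed after Benjamini-Hochberg adjustment (smallest exact permutation adjusted p = 0.0634). The closest in the somatodendritic compartment was that of Sesn2 and Herpud1 (n = 8, Pearson r 0.942, exact permutation p = 0.00107, adjusted p = 0.0634; Spearman rho 0.905, exact permutation p = 0.00456, adjusted p = 0.13). It was 0.851 without the 2 libraries farthest from the median of Sesn2, and 0.932 within +/+ and 0.975 within Hnrnpr-/- libraries. Atf4 and Xbp1 had a negative coefficient (n = 8, Pearson r -0.892, exact permutation p = 0.00176, adjusted p = 0.0634; Spearman rho -0.905, exact permutation p = 0.00456, adjusted p = 0.13), and r was -0.832 without 2 libraries, -0.793 within +/+ and -0.962 within Hnrnpr-/- libraries. In the somatodendritic compartment both replicates numbered 4 had the lowest Atf4 and the highest Xbp1 of their genotype, 115.2 against 149.1 CPM in +/+ and 85.2 against 159.6 CPM in Hnrnpr-/- libraries. Both also had the lowest motoneuron marker sum of their genotype (3135 and 2754 CPM), whose part in this relation was not tested. In axons the r of Atf4 and Xbp1 was 0.018 (n = 8, exact permutation p = 0.966, with a Spearman rho of -0.286, exact permutation p = 0.501). The closest axonal relation by Pearson r was that of Ddit3 and Xbp1 (n = 8, r 0.884, exact permutation p = 0.00382, adjusted p = 0.0917). Its Spearman rho was 0.81 (exact permutation p = 0.0218, adjusted p = 0.224). Ddit3 and Trib3 had an r of 0.855 in axons (n = 8, exact permutation p = 0.0065, adjusted p = 0.11). Chac1 and Asns had an r of 0.869 (n = 8, exact permutation p = 0.00761, adjusted p = 0.11; Spearman rho 0.81, exact permutation p = 0.0218, adjusted p = 0.224), which was 0.78 without 2 libraries, 0.905 within +/+ and 0.989 within Hnrnpr-/- axons.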

How the data were processed

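RNA-seq libraries of the somatodendritic and axonal compartments were grouped and numbered by their titles. The authors trimmed reads, aligned them with STAR 2.7.2b to GRCm39 with the RefSeq annotation and counted exonic reads with featureCounts 1.6.4 in the reverse-strand setting. Reads with several alignments or overlapping genes were split, so the deposited values are fractional, that is, estimated counts without normalization (46320 genes, 35571 with a total above 0). The libraries had 22024923 to 34864151 counts. The cDNA kit does not mark the strand, so reads of genes overlapping on opposite strands cannot be told apart. Of all pairs of libraries, 0 held identical values.

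Counts were rounded and tested in R 4.3.3 with edgeR 4.0.16 (expression filter by group, TMM, quasi-likelihood, Benjamini-Hochberg over all genes tested, two-sided, threshold 0.05). The compartment contrasts and the difference between compartments used all 16 libraries. The genotype contrasts used only the 8 libraries of that compartment, since axonal libraries vary far more. The study describes its RNA-seq libraries as biological replicates. The labels do not say which libraries share a culture. Intervals of 95% are from the fitted model. Correlations within a compartment were tested by exact permutation on CPM.

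The members, the 4 pathway lists, the marker lists and the tests were chosen with earlier results of these data known. Named genes were the 9 members, Hnrnpr, the leading gene of each marker list, per pathway list and compartment contrast the 3 largest rises and falls called with a mean of at least 10 CPM, list genes with an unadjusted p under 0.05 between genotypes, and the 5 genes most like Atf4 and Trib3. Overlapping genes, the marker genes Mnx1, Isl2, Vim, Nes and Slc1a2, Ero1a and Vegfa values per library, and the genes of the closing observations were added after their values were seen. Alternatives were RLE factors, no TMM, no filter, a minimum of 10 counts in all libraries of a group, unrounded counts, DESeq2 1.42.0 with and without shrinkage, limma 3.58.1 (voom with sample weights), a replicate block, protein-coding genes, other sets of libraries and each library left out. A block within genotype and leaving out both axonal libraries numbered 3 or 4 were added after the data were seen.

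Whether replicate numbers pair the compartments was checked from correlations of deviations from group means over genes. They were 0.464, 0.13, 0.31 and 0.601 in Hnrnpr-/- libraries, each over 0.1, so these numbers were taken as pairs. In +/+ libraries they were 0.296, 0.332, 0.342 and 0.063. The somatodendritic library was most like the axonal one of its own number for 3 of 4 numbers in Hnrnpr-/- and for all 4 in +/+ libraries. Promoter sequences are from RefSeq, GRCm38.p6.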

Additional observations from a re-analysis of the deposited data

Results flagged for a closer look

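In 36 groups of 4 libraries, 9 members in 4 groups, the highest or lowest value was compared with the others, and 3 stood apart by a gap to the nearest library, as a share of the range of their group, above Dixon's critical value at 95%. About 1 in 20 groups would be expected to do so by chance. Trib3 was at 21.7 CPM in +/+ axonal replicate 4, against 2.62 to 3.18 CPM in the other +/+ axonal libraries, a gap of 0.971 of the range. Herpud1 was at 51.7 CPM in +/+ axonal replicate 2, against 66.1 to 66.5 CPM in the others, a gap of 0.973 of the range. Xbp1 was at 149.1 CPM in +/+ somatodendritic replicate 4, against 89.5 to 99.5 CPM in the others, a gap of 0.831 of the range. Without +/+ axonal replicate 4 the Trib3 change between the +/+ compartments was -0.63 in place of 0.69 on the log2 scale, neither value being called, and neither Herpud1 nor Xbp1 was called between compartments with any library left out.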

How the results depend on the processing

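Of 1161 values of the members under alternatives, 70 had the other sign than the main value, and 0 of these were called in either fit. Library totals without TMM shifted the median log2 fold change of all genes between compartments by 0.15 in +/+ and 0.118 in Hnrnpr-/- motoneurons, and relative to that median the change of Asns in +/+ was close to its main value. The number of members called between the +/+ compartments was 2, 4 with limma voom, 3 with protein-coding genes only, with only the 8 +/+ libraries and with either block, and 1 to 3 without 1 library. Between the Hnrnpr-/- compartments it was 1, 2 with library totals without TMM, with a minimum of 10 counts in all libraries of a group, with protein-coding genes only and with the replicate block, 0 with both axonal libraries numbered 3 left out, and 0 to 2 without 1 library. Over all genes the genotype called 1 gene in each compartment, 2 with DESeq2 default settings in the somatodendritic compartment and 2 in axons with all 16 libraries in 1 model, 0 in axons with both axonal libraries numbered 3 or both numbered 4 left out, and 0 to 1 without 1 axonal library (0 without Hnrnpr-/- replicate 2). The difference between compartments called 0 genes, and 1 with DESeq2 default settings. The cause of these changes was not tested.

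In +/+ motoneurons the replicate numbers were not taken as pairs, since the correlation of the libraries numbered 4 was 0.063, although every library was most like its own number. With the block within genotype Atf4 was called there (0.36, edgeR adjusted p = 0.0476), and with the number as a block across genotypes Chac1 was (-1.21, edgeR adjusted p = 0.02476). In Hnrnpr-/- motoneurons the block across genotypes gave 0.58 for Atf4 (edgeR adjusted p = 0.007848) and 0.91 for Atf5 (0.02834), while the block within genotype gave 0.57 for Atf4 (0.006935) and 0.89 for Atf5, which then missed the threshold (0.05429). The block changed no other call of a member. Across genotypes, the correlations of the libraries numbered 1 to 4 were 0.01, 0.185, 0.607 and 0.054 in the somatodendritic compartment. They were 0.153, 0.466, 0.851 and 0.044 in axons. Between genotypes, where the numbers were not taken as pairs either, the block gave an unadjusted edgeR p of 0.02387 for Asns in axons (0.47, adjusted p = 1) and of 0.02959 for Trib3 in the somatodendritic compartment (0.51, adjusted p = 0.9829).

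Signs that changed belonged to uncalled values. Between the +/+ compartments Trib3 was -0.078 with limma voom and -0.67 with both axonal libraries numbered 4 left out, where Sesn2 was -0.0899. Without 1 library Trib3 ranged from -0.63 to 1.09 and Sesn2 from -0.0407 to 0.31. Between the Hnrnpr-/- compartments Trib3 was -0.0993 with the replicate block, -0.073 with the block within genotype and -0.48 with both axonal libraries numbered 4 left out. Without 1 library Trib3 ranged from -0.48 to 0.63 and Asns from -0.36 to 0.0158.

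For the genotype in the somatodendritic compartment, limma voom gave -0.021 for Asns, -0.047 for Sesn2 and -0.0327 for Herpud1. The ranges without 1 library were -0.16 to 0.11 for Atf4, -0.22 to 0.0133 for Chac1, -0.046 to 0.11 for Asns, -0.0849 to 0.17 for Sesn2, -0.0726 to 0.11 for Herpud1 and -0.17 to 0.25 for Xbp1. In axons Ddit3 was -0.0535 with the replicate block. With limma voom Ddit3 was -0.15, Chac1 -0.22, Herpud1 -0.11 and Xbp1 -0.0195, and with both libraries numbered 4 left out Atf5 was -0.15 and Ddit3 -0.0953. The ranges without 1 axonal library were -0.0252 to 0.28 for Atf4, -0.13 to 0.28 for Atf5, -0.26 to 0.20 for Ddit3, -0.73 to 1.46 for Trib3, -0.19 to 0.71 for Chac1, -0.0755 to 0.30 for Sesn2, -0.0317 to 0.25 for Herpud1 and -0.0443 to 0.31 for Xbp1.

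For the difference between compartments in the genotype effect, limma voom gave 0.0864 for Atf5, 0.13 for Trib3, -0.0221 for Chac1, -0.075 for Herpud1 and -0.0664 for Xbp1. Ddit3 was 0.0154 with both axonal libraries numbered 3 left out, and Trib3 was 0.20 with both numbered 4 left out. The ranges without 1 library were -0.40 to 0.0248 for Ddit3, -1.17 to 0.99 for Trib3, -0.11 to 0.81 for Chac1, -0.14 to 0.25 for Sesn2, -0.0676 to 0.21 for Herpud1 and -0.12 to 0.31 for Xbp1. This difference needs all 4 groups, so no fit of fewer groups was made.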

Other observations

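The following genes were chosen after their values were seen, and no test was made of them. In the somatodendritic compartment the replicates numbered 1 had the highest level of their genotype not only of Trib3 but also of Ddit4, Vegfa, Ero1a and Stc2. Ddit4 was at 56.8 CPM in +/+ replicate 1, against 23.3 to 40.1 CPM in the other +/+ libraries, and at 64.1 CPM in Hnrnpr-/- replicate 1, against 29.3 to 39.8 CPM. Vegfa was at 77.6 CPM, against 23.8 to 46.0 CPM in +/+, and at 102.4 CPM, against 43.9 to 61.3 CPM in Hnrnpr-/- libraries. Stc2 was at 4.79 and 9.63 CPM in these 2 libraries.

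The replicates numbered 4, which had the highest somatodendritic Xbp1, also had the highest level of Hspa5, the gene of the ER chaperone BiP. It was at 600.7 CPM in +/+ and 611.5 CPM in Hnrnpr-/- replicate 4, and between 368.2 and 436.6 CPM in the other 6 somatodendritic libraries. These 2 libraries also had the lowest motoneuron marker sums of their genotype, 3135 and 2754 CPM. Their fibroblast and meningeal sums were the highest, 451 and 1313 CPM, though replicate 1 of +/+ had 446.9 CPM and replicate 3 of Hnrnpr-/- 1225 CPM. The part of marker content in these values was not tested.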
